A study of Mus musculus with 8 samples.

Results

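The S100 proteins are small calcium-binding proteins, and 10 of the genes that encode them (S100a1, S100a4, S100a6, S100a8, S100a9, S100a10, S100a11, S100a13, S100a16 and S100b) were followed in cultured mouse hepatic stellate cells. They were taken by their symbols from the 40840 genes listed for each library. RNA was sequenced in 8 libraries of primary hepatic stellate cells, which store vitamin A in the liver, from male wild-type C57BL/6J mice aged 15 to 18 weeks. The cells were sorted by their retinol autofluorescence and cultured for 7 days, which turns them into myofibroblastic cells (pMF-HSCs). They then received for 24 h either DMSO, the vehicle (Control, n = 4), or OSMI-1 at 50 µM (OGTi, n = 4). OSMI-1 is a small-molecule inhibitor of O-GlcNAc transferase (OGT), which attaches a single sugar, O-GlcNAc, to intracellular proteins. The control and OGTi libraries of 1 replicate number came from 1 of 4 independent experiments and were compared as pairs. The model is limited to sorted cells grown in culture, to male mice and to 1 dose and 1 time of the inhibitor.

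Most S100 proteins form dimers, and each subunit carries a pair of EF-hands, the helix-loop-helix folds that hold calcium. Calcium opens a surface on the dimer that grips partner proteins, among them annexins, myosin heavy chains and ubiquitin ligase adaptors. S100a10 is the exception, since its EF-hands no longer bind calcium, and it sits with annexin A2 in a tetramer at the plasma membrane. Some members are also released from cells and act on receptors such as RAGE (Ager) and TLR4, as the S100a8 and S100a9 pair of myeloid cells does. S100a4 and S100a6 are widely known from fibroblasts, and S100b from glia.

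Of the 10 members, 9 had a total of at least 10 counts and could be tested. S100a10 and S100b were higher in OGTi, which is 2 of 9, and 0 members were lower, by edgeR's paired quasi-likelihood test at an adjusted p of at most 0.05. Over the 19963 genes tested, 18.4% were called in either direction, 8.13% were higher and 10.2% were lower. No member was lower at an unadjusted p under 0.05 either, and DESeq2 gave 2 members higher and 0 lower. The median log2 fold change (log2 FC) of the 9 members was 0.29, against 0.01 over all genes tested, and 7 of the 9 values lay above 0. The lean above 0 was not kept on another scale. In limma fits of log2(TPM + 1) the median of the members was -0.0255, against -0.10 over all genes, with 4 of 9 above 0. In fits of log2(TPM + 0.1) it was -0.0277, against -0.235 over all genes, again with 4 of 9 above 0. In both fits the median of the members thus lay below 0 but above that of all genes. Without replicate 1 the edgeR median was 0.0737. S100b, at 3 counts in control and 50 in OGTi, passed the count filter through the OGTi group alone, so its entry among the tested members was itself tied to its direction. Without it, 1 of 8 members was called and the median was 0.27. In counts scaled to library size (CPM), 4 members (S100a1, S100a6, S100a10 and S100b) were higher in OGTi in 4 of 4 pairs, a pattern held by 19.4% of all genes tested. All 4 OGTi libraries lay above all 4 control libraries for 3 members, S100a10, S100b and S100a6, which 11.5% of all genes tested did. S100b is in both of these counts, and its entry through the OGTi group tied it to that direction here as well. In RNA from whole cultures, a change in the make-up of the culture and a change in RNA per cell cannot be told apart. Marker sums of 3 other cell types did not overlap between the groups. The endothelial sum was 3.16 to 6.82 CPM in control and 1.01 to 2.44 CPM in OGTi, with Tek and Lyve1 called lower of 8 tested. Tek was the most abundant of this list, and Pecam1 lay the other way (log2 FC 1.33) and was not called. The hepatocyte sum was 0.0517 to 0.324 CPM in control and 0.439 to 1.64 CPM in OGTi, with Cyp2e1 called higher of 3 tested and Hnf4a at 0 in all libraries. Cyp2e1 was the most abundant of this list, and Alb had a log2 FC of -0.05 and was not called. The keratinocyte sum, nearly all Ivl, was 208 to 304 CPM in control and 40.7 to 152 CPM in OGTi, while Krt5 and Krt14 were at 0 in all libraries. The cholangiocyte sum overlapped, at 200 to 436 CPM in control and 128 to 515 CPM in OGTi. Of 5 cholangiocyte markers tested, Sox9 was called higher (log2 FC 3.03) and Krt19 lower (-0.66). The part of these in the S100 values was not tested.

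**Figure D1:**
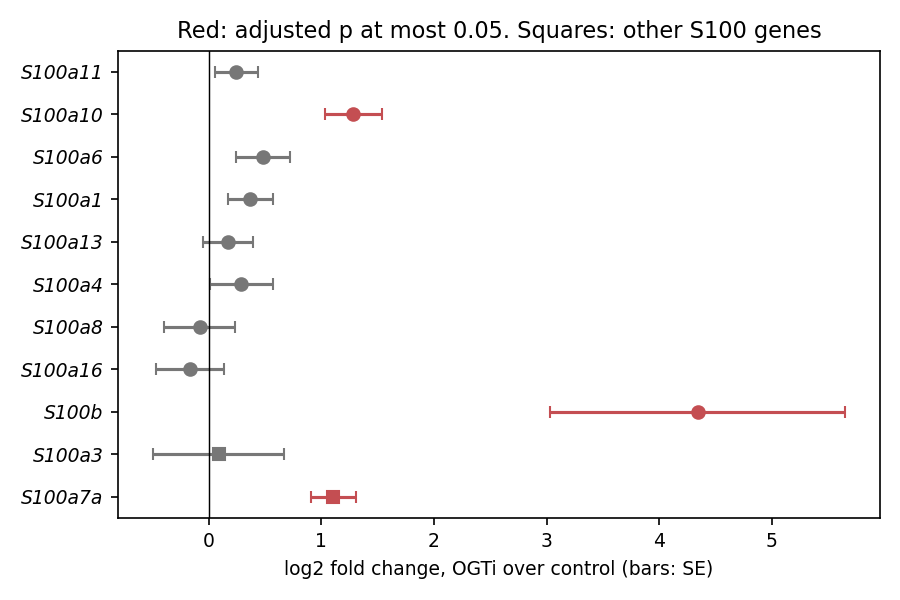
Log2 fold change of OGTi over control (horizontal axis) with its standard error for the 9 tested members (circles) and the 2 other tested S100 genes (squares), from the paired edgeR fit. S100a10, S100b and S100a7a (red) passed an adjusted p of 0.05, and the wide bar of S100b goes with only 3 counts in the control group.

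The libraries held 30068876 to 37372420 expected counts each. Genes with a count numbered 19035 to 20293 in 7 libraries and 23746 in OGTi replicate 4. S100 transcripts are short, with effective lengths of 162 to 889 bases for the tested members on chromosome 3 and 1429 bases for S100b, and OGTi replicate 1 was the library in which short transcripts stood high on average. At the lengths of the 9 tested members, the fitted trend of log2 CPM on length lay 0.35 to 0.79 above 0 in OGTi replicate 1. In the other 7 libraries it lay between -0.25 and 0.10. Stellate and myofibroblast markers were present throughout, at a summed 9188 to 17660 CPM in control and 7538 to 19720 CPM in OGTi libraries, and Lrat, Pdgfrb and Hgf were called lower of 14 tested.

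The members differed widely in level. In TPM, a transcript abundance corrected for length, S100a11 led the control libraries at 4819 ± 467 TPM (SD, n = 4). S100a10 followed at 669.9 ± 99.2 TPM, S100a6 at 438 ± 64.8 TPM and S100a1 at 196 ± 42.4 TPM. S100a13 stood at 89.4 ± 13.2 TPM, S100a4 at 39.8 ± 4.06 TPM, S100a8 at 21.6 ± 12.8 TPM and S100a16 at 9.84 ± 3.58 TPM. The last in order were S100a9 at 0.113 ± 0.225 TPM and S100b at 0.025 ± 0.05 TPM. Neighbours in this order had control values that did not overlap, except S100a4 with S100a8, S100a8 with S100a16, and S100a9 with S100b. S100a4, often used as a fibroblast marker, was thus 6th of the 10 members in these myofibroblasts.

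**Figure D2:**
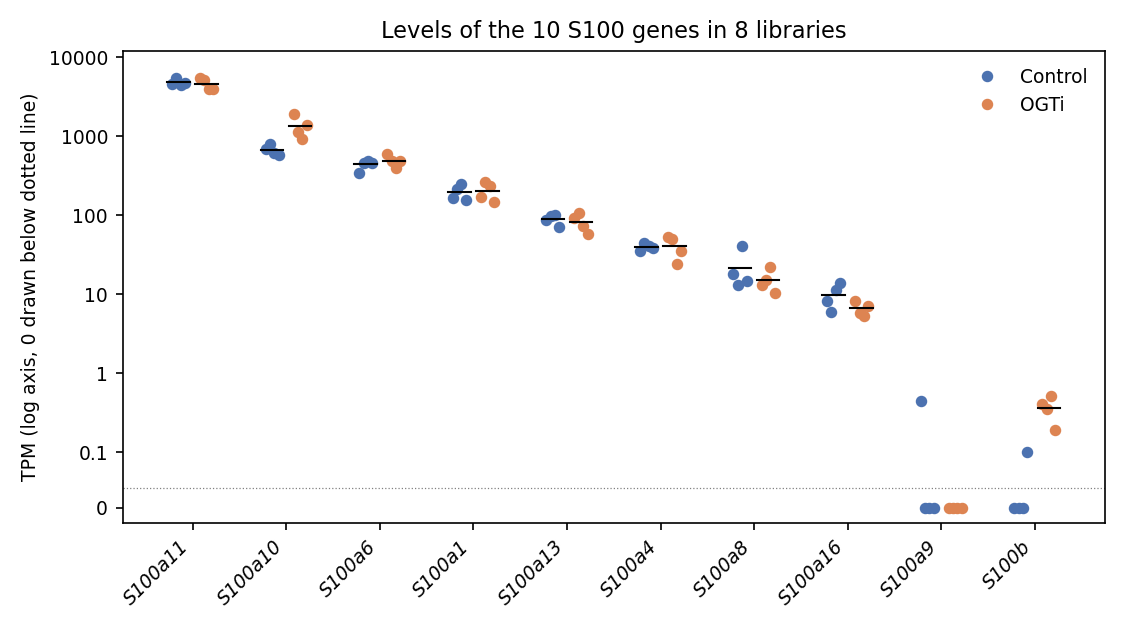
TPM of each member in the 4 control and 4 OGTi libraries, on a log axis with values of 0 drawn below the dotted line; black bars are group means, left out where a library is at 0. S100a11 lies between 3887 and 5499.7 TPM over both groups, while the control and OGTi points separate for S100a10 and for S100b.

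Summed over the 10 members, S100 transcripts made up 5890 to 7145 TPM in control and 5569 to 8349 TPM in OGTi libraries, so the groups overlapped. The sum was higher in OGTi in 1 of 4 pairs, and an exact permutation test over the pairs gave p = 1 (two-sided, smallest possible 0.125). The composition of the sum did move. S100a11 made up 74.4% to 78.0% of the summed TPM in control and 65.0% to 71.2% in OGTi libraries. S100a10 made up 9.50% to 11.5% in control and 15.9% to 23.0% in OGTi libraries. A rise in the share of S100a10 lowers the other shares, and S100a11 itself was not called. These shares thus restate the S100a10 change and are no separate result.

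S100a10, also called p11, is the annexin A2 partner that carries tissue plasminogen activator and plasminogen on the cell surface. Its gene lies at chr3:93462213-93474510 on the plus strand of GRCm39 and has 3 exons in its canonical transcript. It gave 6505, 7925, 5626 and 5085 expected counts in control replicates 1 to 4, and 23585, 9439, 9108 and 12654 in OGTi replicates 1 to 4. In TPM these were 678, 805, 620.1 and 577 in control and 1923, 1133, 928 and 1378 in OGTi. The groups did not overlap on either scale, and OGTi replicate 1 was the highest library. The mean was 161 ± 26.0 CPM in control and 416 ± 183 CPM in OGTi (SD, n = 4 each). The log2 FC was 1.28 ± 0.25 (SE), a 2.44-fold rise, with an adjusted p of 0.00667 by edgeR. The within-pair differences in log2 CPM were 2.02, 0.60, 0.96 and 1.57 for replicates 1 to 4, all in the same direction. Replicate 1, with the largest difference, was also the pair with the short-transcript library. With the length trend removed the log2 FC was 1.14, at an adjusted p of 0.00588 by edgeR. S100a10 was called higher under 14 of 14 alternative settings, with log2 FC from 0.96 to 1.54, including each fit with 1 replicate left out.

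S100a10 protein is known to be held stable by annexin A2, so the transcripts of both were set side by side. Anxa2 stood at 1662 CPM in control and 1657 CPM in OGTi, with a log2 FC of -0.04 ± 0.20 and an adjusted p of 0.923 by edgeR. The sign of the Anxa2 value turned positive under DESeq2, RLE and upper-quartile scaling. The ratio of S100a10 to Anxa2 in TPM was 0.303 ± 0.0422 in control and 0.777 ± 0.226 in OGTi libraries (SD, n = 4 each). It was higher in OGTi in 4 of 4 pairs, and the exact permutation test over pairs gave p = 0.125 (two-sided), the smallest that 4 pairs allow. Likewise the TPM ratio of S100a10 to S100a11 was 0.139 ± 0.0122 in control and 0.291 ± 0.0693 in OGTi, higher in 4 of 4 pairs (exact permutation p = 0.125, two-sided, the smallest possible). Both ratios use the S100a10 values already tested, so they add no separate result. Ahnak, the giant scaffold bound by the S100a10 and annexin A2 complex, had a log2 FC of 0.20 ± 0.23 and was not called (adjusted p = 0.612, edgeR).

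**Figure D3:**
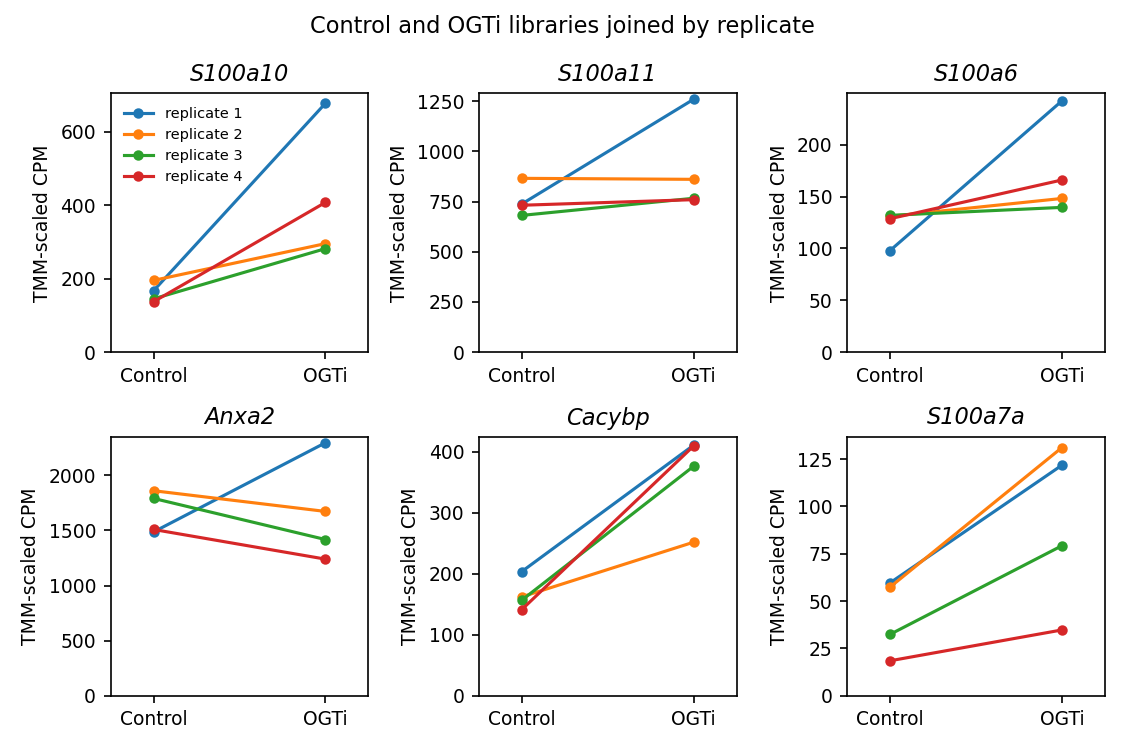
TMM-scaled CPM (vertical axes from 0) of 6 genes, with a line joining the control and OGTi library of each replicate. S100a10, Cacybp and S100a7a climb in 4 of 4 pairs, and Anxa2 climbs in replicate 1 and drops in the other three.

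Over the 8 libraries, the genes whose log2 CPM followed that of S100a10 most closely among 12517 candidates included Cisd2 (Pearson r = 0.989) and Acyp2 (r = 0.985). These correlations run over libraries of both groups and share their depth and length bias, so they describe a pattern only. Cisd2 (log2 FC 0.42 ± 0.20) and Acyp2 (0.69 ± 0.23) were both higher in OGTi in 4 of 4 pairs and were not called by edgeR.

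S100b, the S100 protein abundant in astrocytes and Schwann cells, was at the edge of detection. Its gene lies at chr10:76085090-76097159 on the plus strand of GRCm39, apart from the chromosome 3 cluster. It gave 0, 0, 0 and 3 expected counts in control replicates 1 to 4, and 17, 10, 17 and 6 in OGTi replicates 1 to 4. All 4 OGTi libraries were thus above all 4 control libraries, at levels of 0.193 to 0.526 CPM, while 3 counts are worth 0.0740 to 0.0967 CPM in a library. The summed counts were 3 in control and 50 in OGTi, which per scaled depth is a 19.9-fold ratio (95% exact interval 6.42 to 99.6, counting error only). The edgeR fit gave a log2 FC of 4.34 ± 1.31 and an adjusted p of 0.0438. The call was lost with the length trend removed (adjusted p = 0.0505, edgeR) and without replicate 1, 2 or 3 (0.147, 0.118 and 0.152), and held without replicate 4 (0.0395).

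Schwann and glial markers did not separate the groups, with a summed 0.904 to 1.81 CPM in control and 0.546 to 3.13 CPM in OGTi libraries and 0 of 6 tested markers called by edgeR (0 at an unadjusted p under 0.05, and 0 by DESeq2). Foxd3 was at 0 in all libraries. Dip2a, which overlaps S100b on the other strand, was lower in OGTi in 3 of 4 pairs (log2 FC -1.92 ± 0.53, adjusted p = 0.0299, edgeR), the direction opposite to S100b. The part of either in the S100b result was not tested.

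The promoter window of S100b is shown because S100b was called higher. It runs from 250 bases before to 50 bases after the RefSeq start and lies at chr10:76089420-76089719 on the plus strand of GRCm39. The gene given above begins upstream of this window, at 76085090, so any start there was not covered. Capitals mark CCAAT, the box read by NF-Y, on the same strand and, as ATTGG, on the opposite strand.
S100b: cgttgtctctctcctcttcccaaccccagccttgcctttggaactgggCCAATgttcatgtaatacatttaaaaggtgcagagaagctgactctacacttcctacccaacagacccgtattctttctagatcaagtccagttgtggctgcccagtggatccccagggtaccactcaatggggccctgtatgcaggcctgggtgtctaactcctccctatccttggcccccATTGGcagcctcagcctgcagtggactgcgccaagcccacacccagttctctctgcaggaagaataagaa
The matches begin at positions -202 and -20 from the start site. CCAAT on either strand is common, occurring in 37.4% of 32851 mouse promoter windows of the same length.

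S100a11 and S100a6 are the other abundant members. S100a11, a partner of annexin A1, was the most abundant of all 10 and gave 28705, 35117, 26386 and 27091 expected counts in control and 43855, 27494, 24778 and 23588 in OGTi replicates 1 to 4. OGTi replicate 1 stood above all other libraries, whereas replicates 3 and 4 of OGTi were the lowest in raw counts. The log2 FC was 0.25 ± 0.19 and S100a11 was not called (adjusted p = 0.430, edgeR). Its log2 FC was 0.074 without replicate 1 and 0.06 with the length trend removed, and in fits of log2(TPM + 1) it was -0.08. The promoter window of this most abundant member, at chr3:93427553-93427852 on the plus strand of GRCm39, holds more searched motifs than any other member's window. Capitals mark the AP-1 motif TGANTCA and the GC box GGGCGG.
S100a11: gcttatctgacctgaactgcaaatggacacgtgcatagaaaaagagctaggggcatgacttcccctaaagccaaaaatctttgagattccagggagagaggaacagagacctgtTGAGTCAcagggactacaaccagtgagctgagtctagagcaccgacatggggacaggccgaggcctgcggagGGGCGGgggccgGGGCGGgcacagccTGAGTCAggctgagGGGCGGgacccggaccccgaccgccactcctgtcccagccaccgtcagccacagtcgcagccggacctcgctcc
AP-1 matches begin at positions -136 and -38 from the start and GC boxes at -64, -52 and -24. AP-1 letters occur in 7.81% and GC boxes in 35.7% of all windows.

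S100a6, or calcyclin, binds the calcyclin-binding protein Cacybp, an adaptor of a ubiquitin ligase. It gave 3810, 5310, 5107 and 4764 expected counts in control and 8433, 4732, 4510 and 5151 in OGTi replicates 1 to 4. In CPM every OGTi library (140 to 242) lay above every control library (98.0 to 132). The within-pair log2 CPM difference was 1.305 in replicate 1 and 0.18, 0.08 and 0.37 in replicates 2 to 4. The log2 FC of 0.48 ± 0.24 did not pass (adjusted p = 0.203, edgeR), and in TPM the groups overlapped, at 341 to 483 in control and 394 to 590.2 in OGTi. Without replicate 1 the log2 FC was 0.21. Its partner Cacybp rose from 166 to 362 CPM (log2 FC 1.11 ± 0.21, adjusted p = 0.00529, edgeR), in 4 of 4 pairs and under 14 of 14 alternative settings. Anxa11, another S100a6 partner, had a log2 FC of -0.33 ± 0.28 and was not called.

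S100a1 and S100a13 form an overlapping pair on opposite strands, S100a13 at chr3:90416091-90431912 on the plus strand and S100a1 inside it at chr3:90418340-90421848 on the minus strand. S100a1 is known as a regulator of calcium cycling in heart muscle, and S100a13 takes part in the export of FGF1 and interleukin-1 alpha. S100a1 gave 1453, 1941, 2044 and 1263 expected counts in control and 1916, 1978, 2120 and 1246 in OGTi replicates 1 to 4. It was higher in OGTi in CPM in 4 of 4 pairs, the groups overlapped, and its log2 FC was 0.37 ± 0.20 (adjusted p = 0.235, edgeR). This value was 0.043 in fits of log2(TPM + 1) and 0.17 with library totals. In TPM, S100a1 was lower in OGTi in replicate 3 (246 to 236) and replicate 4 (156 to 148). S100a13 gave 1065, 1225, 1156 and 793 expected counts in control and 1427, 1124, 895 and 659 in OGTi. Its groups overlapped too, with a log2 FC of 0.17 ± 0.22 (adjusted p = 0.652, edgeR) that was 0.035 without replicate 1 and turned to -0.15 in fits of log2(TPM + 1). Over the 8 libraries the log2 CPM of both correlated with r = 0.69. Their promoter windows share 204 bases, so the window of S100a13 at chr3:90421492-90421791 on the plus strand is shown with the shared bases in capitals.
S100a13: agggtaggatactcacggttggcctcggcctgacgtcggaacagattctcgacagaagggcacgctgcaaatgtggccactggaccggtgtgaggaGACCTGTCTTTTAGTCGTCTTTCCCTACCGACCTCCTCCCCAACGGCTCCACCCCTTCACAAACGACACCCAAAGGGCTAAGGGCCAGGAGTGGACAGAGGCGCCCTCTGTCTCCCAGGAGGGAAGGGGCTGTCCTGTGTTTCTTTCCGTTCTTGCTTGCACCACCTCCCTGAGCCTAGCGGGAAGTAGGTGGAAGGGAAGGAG
The letters of the 6 motifs searched occur nowhere in either window. Of the exported partners of S100a13, Fgf1 was lower in OGTi, at 6.96 CPM in control and 2.44 CPM in OGTi (log2 FC -1.43 ± 0.32, adjusted p = 0.0131, edgeR). Il1a was higher in 4 of 4 pairs at very low levels, 0.118 CPM in control and 0.486 CPM in OGTi, and was not called (adjusted p = 0.0842, edgeR). It was called under 4 of 14 alternatives, with DESeq2 (0.0253), with no count filter (0.0353) and in the limma fits of log2(TPM + 1) and log2(TPM + 0.1) (adjusted p = 0.0182 and 0.0248).

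S100a4 and S100a16 were low, and neither passed the test. S100a4, or metastasin, binds non-muscle myosin heavy chains and helps to take filaments apart. It gave 240, 311, 259 and 235 expected counts in control and 453, 293, 165 and 227 in OGTi replicates 1 to 4. The OGTi libraries thus spanned the control range on both sides, and the log2 FC was 0.29 ± 0.28 (adjusted p = 0.533, edgeR), or 0.028 without replicate 1. Its partners Myh9 (log2 FC -0.84 ± 0.22, adjusted p = 0.0273) and Myh10 (-1.19 ± 0.24, adjusted p = 0.00764) were both lower in OGTi by edgeR, each in 4 of 4 pairs. The Myh10 call held under 13 of 14 alternatives and the Myh9 call under 10 of 14, being lost without the replicate block (adjusted p = 0.126, edgeR) and without replicate 1, 3 or 4 (0.0506, 0.103 and 0.0876). S100a16, a broadly expressed member, gave 165, 122, 216 and 263 expected counts in control and 218, 105, 112 and 139 in OGTi. It differed by 0.55 and 0.13 on log2 CPM in pairs 1 and 2 and by -0.68 and -0.66 in pairs 3 and 4, and its log2 FC was -0.17 ± 0.30 (adjusted p = 0.755, edgeR), or -0.41 without replicate 1.

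**Figure D4:**
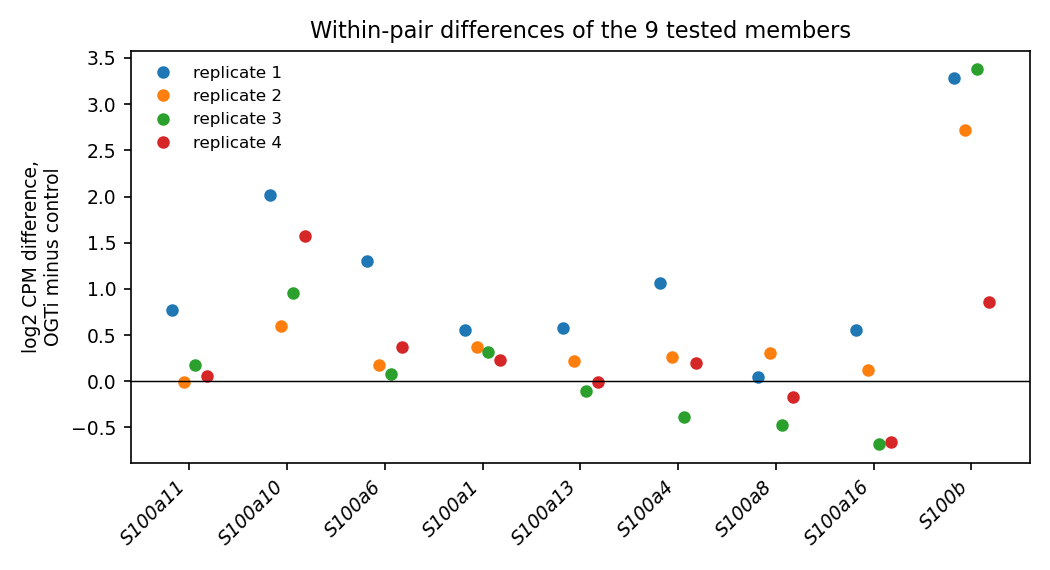
Difference in log2 CPM, OGTi minus control, within each of the 4 pairs (colours) for the 9 tested members. Replicate 1 is the highest of the 4 points for 7 members, and S100a10 lies above 0 in 4 of 4 pairs, from 0.60 to 2.02; the S100b points depend on the prior count of 2 added before the log.

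S100a8 and S100a9 together form calprotectin, the chief cytosolic protein of neutrophils, yet only 1 of the pair was detected beyond a few counts. S100a8 gave 68, 50, 142 and 50 expected counts in control and 63, 49, 85 and 37 in OGTi replicates 1 to 4. Replicate 3 was the highest library in each group, and the groups overlapped. The log2 FC was -0.08 ± 0.32 (adjusted p = 0.898, edgeR), and the ratio of summed counts per scaled depth was 0.900 (95% exact interval 0.756 to 1.07, counting error only). S100a9 gave 3 counts in control replicate 1 and 0 in the other 7 libraries, so it was not tested, and 0 counts allow up to 0.0740 to 0.0967 CPM in a library. The neutrophil marker sum was 4.11 to 7.38 CPM in control and 2.61 to 6.12 CPM in OGTi, with Retnlg and Camp at 0 in all libraries. Of 8 neutrophil markers tested, Ltf was lower and Cxcr2 was higher. The macrophage marker sum was 31.1 to 105 CPM in control and 58.9 to 160 CPM in OGTi, was highest in replicate 3 of each group, and held 1 called marker of 12 (Cd68, higher). The part of such cells in the S100a8 values was not tested.

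The window of S100a8 at chr3:90576128-90576427 on the plus strand of GRCm39 is shown beside these values because the detected and the undetected gene of the pair lie next to each other. Capitals mark TATAAA, the TATA box.
S100a8: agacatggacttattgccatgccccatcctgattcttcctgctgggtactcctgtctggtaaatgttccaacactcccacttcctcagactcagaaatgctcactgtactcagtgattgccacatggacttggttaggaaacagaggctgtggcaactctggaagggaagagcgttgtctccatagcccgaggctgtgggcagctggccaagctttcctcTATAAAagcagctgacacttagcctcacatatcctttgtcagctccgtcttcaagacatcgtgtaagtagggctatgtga
This match begins at position -30 from the start. The S100a4 window has TATAAA at position -31, and the S100a9 window has it at position 1, the first base after the window's start site, while 13.6% of all windows hold it on either strand.

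Across libraries, of 36 pairs of members, 27 had a positive Pearson r of log2 CPM over the 8 libraries, with a median of 0.37 and a range from -0.45 (S100a1 with S100a16) to 0.88 (S100a6 with S100a10). The libraries share treatment and depth, and the fitted length trend was high at the members' lengths in OGTi replicate 1. The values describe these libraries and were not compared with those of other short genes. Whether any of this variation is particular to the members was thus not tested.

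Other S100 genes were listed at low levels, apart from S100a7a. S100a7a, a psoriasin relative of skin, gave 2317, 2326, 1254 and 682 expected counts in control and 4236, 4181, 2558 and 1077 in OGTi replicates 1 to 4. The groups overlapped because the pairs differed in level, but OGTi was higher within 4 of 4 pairs. Its log2 FC was 1.11 ± 0.20 (adjusted p = 0.00443, edgeR), and without the replicate block the adjusted p was 0.112. S100a3 gave 61 counts in control and 55 in OGTi (log2 FC 0.09 ± 0.58, adjusted p = 0.942, edgeR). S100a14, S100a2, S100a7l2 and S100z had a few counts and were not tested, and S100a5 and S100g were at 0 in all libraries. Of the 7 genes that carry an S100 domain fused to a long repeat (filaggrin and its relatives), 2 were tested and 0 called by edgeR (1, Tchh, at an unadjusted p under 0.05 and also by DESeq2). The log2 FC of Tchh was 0.72 ± 0.26, and Crnn had 12 counts in control replicate 2 and 0 in the other 7 libraries, so neither its fold change nor the median of the list is read.

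On chromosome 3 the S100 genes flank the epidermal differentiation complex, the array of cornified envelope genes of skin. The 9 members there span 3058 kb, with S100a10 and S100a11 at the far end, 3046 and 2998 kb from the first S100 gene. Of 40 other genes tested between the outermost S100 genes, 21 were higher in OGTi and 2 (Ivl and Sprr1a) were lower. Over all genes tested, 8.13% were higher and 10.2% were lower. Late cornified envelope (Lce) genes were 16 of the 21, with 18 tested. Some of them, such as Lce1b (0 CPM in control, 1.02 in OGTi) and Lce1k (0 and 0.358), passed the count filter through the OGTi group alone. The entry of such genes among those tested was itself tied to their direction. The lowest p-values were those of Lce1l, which rose from 7.59 to 265 CPM, Lce1g, from 13.4 to 808 CPM, and Lce1f, from 1.27 to 30.9 CPM, each in 4 of 4 pairs. These near-identical copies may share reads, so their single values are uncertain. Of the 9 members in this stretch, 8 were tested and S100a10 was called.

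**Figure D5:**
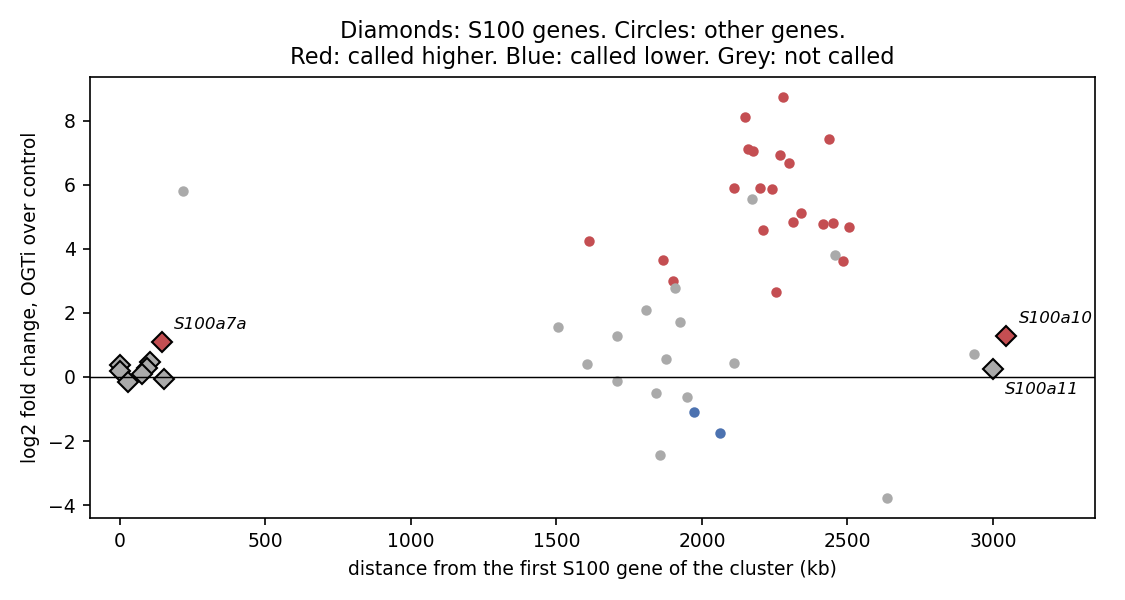
Log2 fold change of OGTi over control (vertical axis) against distance in kb from the first S100 gene of the chromosome 3 cluster, for S100 genes (diamonds) and the 40 other tested genes (circles), coloured by call. Called genes gather in the middle, where the Lce genes lie, while the S100 genes at the ends stay near 0 apart from S100a7a and S100a10.

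Annexins, the best known partners of the family, moved in both directions. Of 12 tested, Anxa9 was higher and Anxa1, Anxa3 and Anxa6 were lower, with a median log2 FC of -0.40. This is 33.3% called, against 18.4% of all genes tested, whose median was 0.01. Neither this list nor the lists below were tested as sets, and all but the EF-hand list are small. Anxa1, the partner of S100a11, fell from 1598 to 768 CPM (log2 FC -1.17 ± 0.22, adjusted p = 0.00572, edgeR). Anxa3 fell from 507 to 273 CPM, Anxa6 from 712 to 400.3 CPM, and Anxa9 rose from 1.86 to 4.37 CPM. The calls of Anxa1, Anxa3, Anxa6 and Anxa9 held under 13, 14, 12 and 10 of 14 alternatives.

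Receptors of released S100 proteins gave 1 higher and 2 lower of 8 tested, with a median log2 FC of 0.41. This is 37.5% called, against 18.4% of all genes tested. Tlr4, the receptor of calprotectin, fell from 22.6 to 12.6 CPM (log2 FC -0.95 ± 0.28, adjusted p = 0.0397, edgeR) and its co-receptor Cd14 from 11.1 to 5.93 CPM. The Tlr4 call held under 8 of 14 alternatives and was lost without the replicate block (adjusted p = 0.0896, edgeR) and without replicate 1, 3 or 4 (0.109, 0.153 and 0.137). The Cd14 call held under 9 of 14 and was lost without replicate 1, 3 or 4 (adjusted p = 0.0912, 0.164 and 0.193, edgeR). The adhesion molecule Alcam rose from 2.78 to 6.19 CPM, a call that held under 9 of 14 alternatives. Ager, which encodes RAGE, was near the floor at 0.505 CPM in control and 0.557 CPM in OGTi and was not called.

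Of 18 other partners tested, 3 were higher and 4 lower, with a median log2 FC of -0.11. This is 38.9% called, against 18.4% of all genes tested. Plaur and Plat, proteins of plasminogen activation, and Cacybp were the higher ones. Plaur, the urokinase receptor, rose from 236 to 580.1 CPM (log2 FC 1.33 ± 0.23, adjusted p = 0.00337, edgeR), under 14 of 14 alternatives. Plat, tissue plasminogen activator, rose from 40.4 to 68.4 CPM (log2 FC 0.79 ± 0.20, adjusted p = 0.0211, edgeR), a call that held under 7 of 14 alternatives. Stk38, a kinase bound by S100b, fell from 74.7 to 33.8 CPM.

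Of 41 other EF-hand genes tested, 1 was higher and 2 were lower, with a median log2 FC of 0.25. This is 7.32% called, below the 18.4% of all genes tested. Sri, sorcin, fell from 291 to 174 CPM and Gca, grancalcin, from 10.4 to 5.48 CPM, calls that held under 9 and 12 of 14 alternatives.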

How the data were processed

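Libraries were stranded and paired-end, from oligo(dT)-selected RNA. The authors aligned reads to mm39 with Bowtie2 2.3.5.1 and counted them with RSEM 1.3.1. The deposited tables give, per library, expected counts (RSEM's estimate for each gene, not always a whole number) and TPM, scaled by the authors for transcript length and depth. Of 80 member values 1 was fractional. The deposited comparison table (DESeq2 1.36.0, with fold changes and p-values) was not used, nor were its 16 columns of per-sample values.

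Groups came from the sample titles. Expected counts were rounded and the 19963 genes of 40840 with a total of at least 10 were tested in edgeR 4.0.16 (R 4.3.3), with TMM scaling, glmQLFit and glmQLFTest, the replicate number as a block, and Benjamini-Hochberg adjustment over all genes tested. Standard errors are the log2 FC over the root of F. CPM are counts over TMM-adjusted library totals, and log2 CPM use a prior count of 2. The pairing comes from the study's methods. Deviations of same-numbered libraries from their group means correlated weakly (r = 0.160, 0.224, 0.105 and 0.318), and other pairs ranged from -0.312 to 0.208, so that OGTi replicate 1 was closer to control replicate 2 than to its own number (r = 0.208 against 0.160), and control replicate 3 closer to OGTi replicate 4 (0.122 against 0.105). Simulated counts for these 8 libraries recovered 94% of genes changed by 2 on the log2 scale and 33% of those changed by 1, so an uncalled member may still have changed. Each size of change was given to 100 genes, and 20 unchanged genes were called as well, so a call may also be false. The changed genes had a mean above 1 CPM, so the recovery does not cover S100b. Alternatives were DESeq2 1.42.0, RLE, upper-quartile and total scaling, no count filter, filterByExpr, no replicate block, removal of the trend on transcript length (lowess, span 0.3), limma 3.58.1 on log2(TPM + 1) and log2(TPM + 0.1), and leaving out each replicate. Intervals and floors of 3 counts cover counting error only.

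Coordinates are from GENCODE on GRCm39. Promoter windows are from RefSeq (GRCm38.p6, 9 of 10 members matched by symbol, not S100a10) and were placed on GRCm39 by exact match. The GENCODE genes of S100a8, S100a11, S100a13 and S100b begin upstream of the windows shown (at 90567118, 93414382, 90416091 and 76085090). Starts of transcripts outside the windows were not searched. Motifs TATAAA (the TATA box), CCAAT (read by NF-Y), GGGCGG (the GC box), TGANTCA (AP-1), GGAATG (TEAD) and TGACNNNGC (antioxidant response core) were searched on both strands, and matches are descriptions. TGANTCA reads the same on both strands. Named genes were all members, all S100 genes with a count, called list genes (at most 3 per direction, by p) and textbook partners, apart from a few that are not reported here. The members and lists were chosen with earlier results of these data known.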

Additional observations from a re-analysis of the deposited data

Results flagged for a closer look

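In 24 groups of 4 values, 3 had a library far from the others of its group by Dixon's test, where chance gives about 1.2. S100a6 was low in control replicate 1, at 98.0 CPM. S100b was high in control replicate 4, at 0.0811 CPM, the only control library with any count; with the other three at 0, any count would have stood apart, so this one says nothing of the library. The summed TPM of the members was high in control replicate 2, at 7145 TPM.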

How the results depend on the processing

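The count of members called higher was 2, or 1 with the length trend removed and 1 to 2 with a replicate left out (S100a10 alone without replicate 1, 2 or 3), and the count called lower was 0 under 14 of 14 alternatives. Without the replicate block it was 2 as well, and S100a7a lost its call. Of the listed partner, EF-hand and other S100 genes, 7 were higher, against 13 with DESeq2, 13 with the length trend removed, 4 and 4 in fits of log2(TPM + 1) and log2(TPM + 0.1), and 3 to 8 with a replicate left out. Of the same lists 11 were lower, against 7 without the replicate block, 17 with log2(TPM + 0.1) and 4 to 10 with a replicate left out. Over all genes 1623 were higher (843 to 1433 with a replicate left out) and 2043 lower (1062 to 1744, and 3456 and 3473 in the TPM fits). Without replicate 3 or 4 the counts over all genes were lowest. The median log2 FC of all genes was 0.01 under TMM, 0.13 under upper-quartile scaling and -0.19 by library totals, and 44.3%, 54.2% and 30.1% of the called genes were higher.

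Log2 FC values that changed sign were all of genes not called, and the cause was not tested. In log2(TPM + 1) and log2(TPM + 0.1) fits these were S100a4 (-0.0255 and -0.0277), S100a11 (-0.0792 and -0.0792), S100a13 (-0.147 and -0.149), S100a3 (-0.131 and -0.323) and, with the former, Ager (-0.0514). With library totals they were S100a13 (-0.0243), S100a3 (-0.102) and Ahnak (-0.00169), and with the length trend removed S100a3 (-0.0262). Anxa2 was 0.00829 with DESeq2, 0.00829 with RLE and 0.0851 with upper-quartile scaling, where S100a8 was 0.0478. With a replicate left out the ranges were -0.181 to 0.0639 for S100a8 (above 0 without 3), -0.412 to 0.0158 for S100a16 (above 0 without 3 or 4), -0.164 to 0.306 for S100a3 (below 0 without 1 or 3), -0.256 to 0.0630 for Anxa2 (above 0 without 2, 3 or 4) and -0.0172 to 0.303 for Ahnak (below 0 without 2). Of 462 values over 33 genes, 376 kept direction and side of the threshold, 56 fell short of it, 4 (all of Il1a) newly passed it and 26 changed sign. Of 20 called genes, S100a10, Anxa3, Plaur and Cacybp passed under all 14 alternatives.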
